A study of Rattus norvegicus with 12 samples.

Results

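The 427 regions described here are the isolated N6-methyladenosine (m6A) regions of the rat retina. Each had a peak in all 6 deposited peak lists and lay at least 200 kb from the nearest other region on both sides. They were chosen by position and by presence in the lists. Merging every overlap between the 6 lists on chromosomes 1 to 20, down to 1 base, gave 12134 union regions. Of these, 6965 had a peak in all 6 lists and are called shared regions below, so the isolated regions are 6.13% of the shared regions and 3.52% of the union. The smaller of the distances to the neighbours on both sides is called the gap. At the ends of chromosomes, 7 isolated regions had a neighbour on 1 side only and were counted as far from the missing one.

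The lists came from retinas of male Sprague-Dawley rats of about 100 g. The diabetic group (labelled Diabetic, n = 3) received streptozotocin, a compound toxic to insulin-producing beta cells, intraperitoneally at 60 mg/kg after a 12 h fast on consecutive days. The control group (labelled WT, n = 3) received the citrate buffer vehicle in the same way. Rats whose fasting glucose exceeded 16.7 mmol/L, measured 1 week after the last injection, counted as diabetic. The animals weighed 103.4, 110.5 and 106 g in the control group and 100.4, 102.5 and 104 g in the diabetic group, and their age is not stated. RNA cut to fragments of about 100 nt was precipitated with a polyclonal anti-m6A antibody, and each precipitated (IP) library was set against the input library of the same animal. Whole retina holds many cell types, and their shares were not measured, so fewer cells of a type and less RNA per cell cannot be told apart.

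m6A is a methyl group on adenosines inside RNA. It is written during transcription by a complex around METTL3 and METTL14, can be removed by FTO and ALKBH5, and is bound by reader proteins of the YTH family that influence splicing, export, translation and decay of the transcript. In most mammalian mRNAs the mark is concentrated near the stop codon, in the 3' untranslated region and in long internal exons. A transcript can carry several m6A regions, which lie close together on the genome or, where introns separate its exons, far apart. A region far from all others is thus a stretch of genome where a single methylated site or tight cluster was detected. The nearest other enriched transcript, or the next exon with a peak, lies far away. Distances here are on the genome, not along the RNA, and the strand was not recorded. The lists name no genome build or genes, so no gene, exon or untranslated region is given, retinal marker genes could not be checked, and no sequence is printed.

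Depth differed between animals. Peak calling scaled the IP or input library of an animal down to whichever was smaller, and that one held 8661200, 8175227 and 9030946 reads in control replicates 1, 2 and 3 and 8729247, 10186285 and 12354616 in diabetic replicates 1, 2 and 3. The lists held 8876 to 9947 regions on chromosomes 1 to 20 in controls and 9483 to 10323 in diabetic rats. The measure of signal is the pileup, the read coverage at the highest summit of a region. It was divided by the median pileup of the 6965 shared regions of the same list, so a relative pileup of 1 is that of the median shared region of that animal. The pileup is IP coverage and is not divided by the amount of the transcript, so more methylation and more RNA cannot be told apart.

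Isolated regions were spread over all 20 chromosomes. Chromosome 2 held 54 of them, chromosome 1 held 49, chromosome 4 held 37, chromosome 3 held 31 and chromosome 6 held 30. As a share of the shared regions of a chromosome they ranged from 1.85% on chromosome 10 (11 of 594) and 2.47% on chromosome 12 (6 of 243) to 9.75% on chromosome 17 (23 of 236) and 10.8% on chromosome 2 (54 of 501). Chromosomes 10 and 12 had the highest density of shared regions, 5.37 and 4.68 per Mb between the first and last region, against 1.91 on chromosome 2. The lowest density, 1.70 per Mb on chromosome 15, went with 5.88% isolated, and chromosome 17 had 2.60 per Mb. Density and isolation both come from the positions that chose the regions, so their relation was not tested.

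The gaps of the isolated regions had a median of 349468 bases. In 168 regions (39.3%) the gap was below 300 kb, in 131 (30.7%) at least 500 kb, in 40 (9.37%) at least 1 Mb and in 8 (1.87%) at least 2 Mb. The region with the largest gap, chr19:6046715-6046989, had no neighbour for 3497185 bases on one side and 3565472 bases on the other. It was followed by chr2:66607417-66607854 (2817439 bases to the nearer neighbour), chr2:175232335-175232695 (2605203), chr11:51040336-51040832 (2522407), chr17:67901260-67901518 (2312557) and chr13:31227742-31228141 (2247876). Just inside the minimum lay chr5:153568763-153569083 with a gap of 201088 bases, chr7:83803450-83804287 with 201096 and chr6:109779892-109780168 with 201562. Just outside it lay chr14:2658640-2659120 with 199694 bases, chr6:72119494-72119995 with 199145 and chr1:72667425-72667757 with 199070. The pileups on both sides of the minimum overlapped: mean relative pileups were 0.826, 0.849 and 0.862 just inside and 0.852, 1.50 and 0.683 just outside.

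The 6 remotest regions were on average weaker than the median shared region and had 1 to 3 summits. At chr19:6046715-6046989, 275 bases wide, the relative pileup was 0.651, 0.618 and 1.20 in control replicates 1, 2 and 3 and 0.788, 0.779 and 1.01 in diabetic replicates 1, 2 and 3. The control values span those of the diabetic rats. At chr2:66607417-66607854 it was 0.440, 0.517 and 0.415 in controls and 0.585, 0.681 and 0.699 in diabetic rats, without overlap of the groups. At chr13:31227742-31228141 the groups were also separate, with 0.349, 0.469 and 0.476 in controls and 0.601, 0.608 and 0.506 in diabetic rats. At the other 3, on chromosomes 2, 11 and 17, the groups overlapped.

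Many isolated regions had another isolated region as a neighbour. This was so for 160 of the 427 (37.5%), and 20 lay between 2 other isolated ones. In all there were 267 single ones, 54 runs of 2, 14 runs of 3, 1 run of 4 and 1 run of 6 consecutive isolated regions. The run of 6 lay on chromosome 14 from 59198491 to 60906963, a stretch of 1708473 bases with no other region in any list. Its strongest region, chr14:60057526-60058130, had relative pileups of 3.20, 3.83 and 3.75 in controls and 4.43, 3.34 and 3.90 in diabetic rats. Its weakest, chr14:60906657-60906963, had 0.606, 0.971 and 0.361 in controls and 0.565, 0.362 and 0.591 in diabetic rats. Neighbours along 1 sparse stretch thus differed several-fold in signal, and the groups overlapped at both.

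Isolated regions were narrower than the other shared regions in every animal. Their median peak width was 309, 302 and 367 bases in control replicates 1, 2 and 3 and 358, 384 and 356 in diabetic replicates 1, 2 and 3. The other 6538 shared regions had medians of 340.5, 335.0 and 400.0 bases in controls and 371, 397 and 374 in diabetic rats. The mean difference over the 6 animals was -23.6 ± 9.95 bases (SD, n = 6; narrower in 6 of 6; exact two-sided sign-flip permutation p = 0.0312, the smallest 6 animals allow; Benjamini-Hochberg adjusted p = 0.0391 over 5 measures). All 6 lists read the same regions, so this p covers only the spread between animals. Where a list had separate peaks inside 1 region, their widths were summed and all their summits counted. More than 1 separate peak in some list occurred at 36 isolated regions (8.43%) and at 9.59% of other shared regions.

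Fewer isolated regions had several summits. Regions with 2 or more summits made up 37.0, 35.8 and 42.2% of the isolated regions in controls and 38.9, 43.1 and 41.0% in diabetic rats. Other shared regions had shares of 41.8, 38.5 and 43.9% in controls and 41.3, 44.5 and 41.8% in diabetic rats. The mean difference was -2.31 ± 1.39 percentage points (SD, n = 6; lower in 6 of 6; exact sign-flip permutation p = 0.0312, adjusted p = 0.0391). Counted by region, 201 isolated regions (47.1%) had a single summit in all 6 lists, 113 (26.5%) had several in all 6, and the other 113 were mixed. Among other shared regions 44.5% had a single summit and 29.6% several summits in all 6.

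The signal of isolated regions was slightly below that of the other shared regions. Their median relative pileup was 0.899, 0.903 and 0.898 in control replicates 1, 2 and 3 and 0.964, 0.957 and 0.926 in diabetic replicates 1, 2 and 3. All 6 medians lie below 1, and the 3 diabetic ones lie above the 3 control ones. On the log2 scale the median of isolated regions differed from that of other shared regions by -0.12 ± 0.056 on average (SD, n = 6; lower in 6 of 6; exact sign-flip permutation p = 0.0312, adjusted p = 0.0391), a ratio of 0.917. Without control replicate 2 it was -0.075. Of the isolated regions, 241 (56.4%) had a mean relative pileup below 1, against 49.9% of other shared regions, and 17 (3.98%) were above 4.

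The local input background also differed. The caller compares each peak with the input average over 1 kb or 10 kb, or with a floor if that is higher. The floor is the average coverage over the genome size given to the caller. That size was 61.5 Mb in every list, while the regions of chromosome 1 alone spanned 282 Mb. The shares at the floor and the fold enrichments depend on this setting. A background above the floor marks positions with much input RNA. In controls 12.2, 12.4 and 12.6% of isolated regions had a background above the floor, and in diabetic rats 16.6, 13.8 and 11.9%. For other shared regions it was above the floor in 17.3, 19.4 and 20.3% in controls and 24.6, 18.8 and 18.9% in diabetic rats. The mean difference was -6.60 ± 1.28 percentage points (SD, n = 6; lower in 6 of 6; exact sign-flip permutation p = 0.0312, adjusted p = 0.0391). At 342 isolated regions (80.1%) the background stayed at the floor in all 6 lists, against 69.5% of other shared regions, so for most isolated regions the fold enrichment does not correct for local input. Their median fold enrichment within a list, the authors' own ratio, was 5.21 to 6.68, against 5.84 to 7.08 for other shared regions, and it was lower in 5 of 6 lists (exact sign-flip permutation p = 0.0625).

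**Figure D1:**
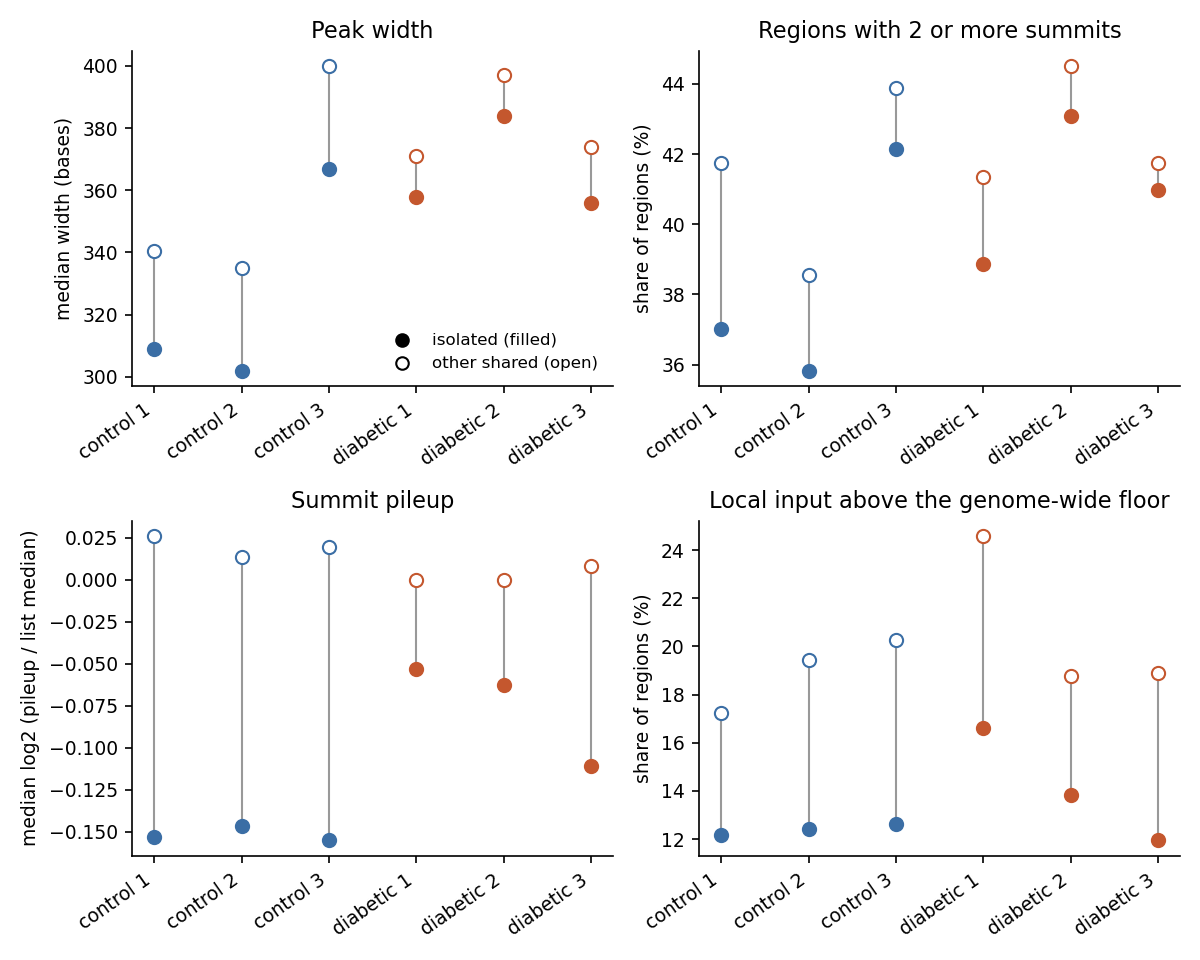
Median peak width (bases), share of regions with 2 or more summits (%), median log2 relative pileup, and share of regions whose local input background exceeded the caller's floor (%), for each of 3 control and 3 diabetic rats. Filled points are the 427 isolated regions and open points the other 6538 shared regions of the same list, joined by a line; the filled point lies below the open one in all 6 animals in each panel, and axes do not start at 0.

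Width and summit number go with pileup, so both differences were also taken within 4 classes of mean pileup, each with the same number of shared regions and numbered from the lowest. In classes 1, 2 and 4, with 112, 128 and 91 isolated regions, the difference in median width was -10.7, -13.25 and -11.5 bases on average, and negative in 5 of 6 animals in each. In class 3, with 96 isolated regions, the isolated ones were wider by 19.9 bases in 6 of 6 animals (exact sign-flip permutation p = 0.0312). There the share with several summits was also higher, by 5.95 percentage points in 6 of 6 animals (exact sign-flip permutation p = 0.0312), while the difference was -2.65, -2.65 and -3.93 points in classes 1, 2 and 4, and negative in 5, 6 and 6 of 6 animals (exact sign-flip permutation p = 0.0938, 0.0312 and 0.0312). Narrower width and fewer summits therefore did not hold at every level of signal.

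The positions of the peaks mostly differed little between animals. Only regions where peaks of all 6 lists merged by overlap were kept, which itself limits how far positions can differ. The main summit of an isolated region moved over a range of 22 bases (median) between the 6 lists, against 23 bases for other shared regions, and the ranges of start and end had medians of 39 and 41 bases. In 70 isolated regions (16.4%) the range of the summit was at most 10 bases, against 14.3% of other shared regions. In 64 (15.0%) it was over 100 bases, against 16.2%. The summit moved most at chr4:110702289-110703886, by 1066 bases, then at chr1:66231940-66233585 by 719, chr5:2979509-2981685 by 652 and chr4:34244450-34245403 by 638. The first 3 are wide regions with several summits in every list, among which the highest changed from animal to animal. At the least mobile, chr10:70753193-70753317, chr18:36247745-36247869, chr8:106603564-106603730 and chr8:5090365-5090527, the range was 0, 3, 3 and 4 bases.

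The widest isolated region, chr6:61374127-61376717, lay 1424533 and 2790260 bases from its neighbours. It was 2373, 2403 and 2568 bases wide in control replicates 1, 2 and 3 and 2591, 2425 and 2404 in diabetic replicates 1, 2 and 3, with 6 to 8 summits in each list. Its relative pileup was 1.71, 1.91 and 1.99 in controls and 2.38, 1.83 and 1.84 in diabetic rats, so a long stretch of RNA was enriched at a signal not far above the median, with overlapping groups. The next widest were chr5:2979509-2981685 (1607 to 2162 bases over the lists), chr5:107323601-107325539 (1818 to 1939) and chr7:61790160-61791955 (1749 to 1794).

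The narrowest isolated regions had the width of the caller's read extension. At chr8:18883904-18884028, chr18:36247745-36247869, chr10:70753193-70753317 and chr2:136122008-136122132 the peak was 119, 120 and 125 bases wide in control replicates 1, 2 and 3 and 122, 118 and 121 bases in diabetic replicates 1, 2 and 3. These are the extension lengths of the 6 lists, so in each list the called stretch was as long as 1 extended read. The lowest mean width over the lists was 120.8 bases among isolated and among other shared regions alike. These widths thus lie at the lower edge of all shared regions. A width within 10 bases of the extension length in all 6 lists was found in these 4 isolated regions (0.937%) and in 9 of the other 6538 shared regions (0.138%), a count made after the data were seen and not tested. All duplicate reads were kept in calling, and the part of duplicates in these peaks was not tested. At chr8:18883904-18884028 the relative pileup was 1.15, 1.57 and 0.776 in controls and 1.24, 0.953 and 0.699 in diabetic rats, near the median shared region.

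The strongest isolated regions reached over 5 times the median signal. At chr1:12824098-12825595, the highest, the relative pileup was 12.2, 12.3 and 14.8 in control replicates 1, 2 and 3 and 13.1, 11.5 and 14.2 in diabetic replicates 1, 2 and 3. The groups overlapped, and the region was about 1.5 kb wide (1451 to 1494 bases) with 4 to 6 summits. Its rank was 37 among the 6965 shared regions. At chr14:71876764-71877516 it was 12.0, 13.9 and 13.3 in controls and 14.2, 10.6 and 13.1 in diabetic rats, over a local background of 6.13 to 9.30 times the floor. Next came chr7:61790160-61791955 with 8.37 to 10.1 over the 6 animals, chr5:107323601-107325539 with 7.57 to 9.54, and chr3:92661521-92662219 with 5.09 to 6.89. In these 5 regions the groups overlapped.

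The sixth, chr2:157011307-157011446, was strong and very narrow, at 122 to 136 bases over the lists. Its relative pileup was 6.68, 6.20 and 6.58 in controls and 5.27, 5.21 and 5.37 in diabetic rats, with all diabetic values below all control values. The log2 difference was -0.29 ± 0.11 (SE; limma adjusted p = 0.225), and it did not pass the test. The local background there was 9.78 to 16.6 times the floor, and the fold enrichment was only 2.45 to 4.09, so a high pileup stood on a high input.

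**Figure D2:**
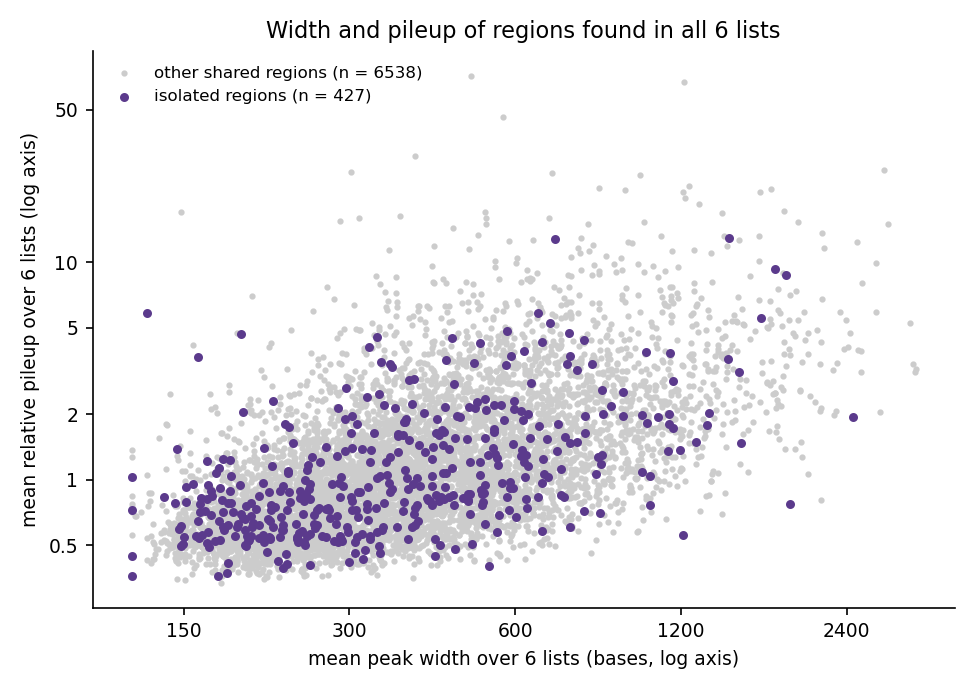
Mean relative pileup (1 is the median shared region of a list; log axis) against mean peak width in bases (log axis), both over the 6 lists, for the 427 isolated regions and the other 6538 shared regions. Of the isolated regions 17 lie above a pileup of 4, and 4 form a column at the left edge, at the length of an extended read.

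The weakest isolated regions were close to the limit of detection and stayed there in all animals. At chr4:92514897-92515231 the relative pileup was 0.321, 0.401 and 0.388 in controls and 0.316, 0.379 and 0.358 in diabetic rats, with fold enrichments from 2.03 upward. At chr10:70753193-70753317 it was 0.468, 0.401 and 0.388 in controls and 0.280, 0.315 and 0.335 in diabetic rats. At chr2:114384666-114384878 it was 0.340 to 0.406 over the 6 animals, at chr8:66340382-66340698 0.318 to 0.429, at chr4:34244450-34245403 0.341 to 0.461 and at chr8:132536432-132536773 0.349 to 0.469. Only at the chromosome 10 region were the groups separate. Regions were chosen for a peak in every list, which sets a lower edge to these values.

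In diabetic retinas the isolated regions leaned to higher signal. On the log2 scale the median difference between diabetic and control animals was 0.086 over the 427 isolated regions, against -0.0016 over all 6965 shared regions. The difference was above 0 in 273 of the isolated regions (63.9%), against 49.7% of all shared regions. In 63 isolated regions (14.8%) all 3 diabetic values lay above all 3 control values, against 9.91% of shared regions, and in 15 (3.51%) they lay below, against 10.7%. Regions with higher values thus outnumbered those with lower ones among isolated regions, while the sides were nearly even over all shared regions. Without control replicate 1 the median over the same 427 regions was 0.041. With pileup divided by the reads of the smaller library and not centred, the difference was above 0 in 76.3% of isolated and 61.6% of all shared regions, and 48 isolated regions (11.2%) were higher and 9 (2.11%) lower without overlap, against 7.74% and 3.93% of all shared regions.

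By animal, the median log2 relative pileup of isolated regions was -0.15, -0.15 and -0.16 in control replicates 1, 2 and 3 and -0.053, -0.063 and -0.11 in diabetic replicates 1, 2 and 3. The groups do not overlap. The means were -0.15 ± 0.0046 and -0.076 ± 0.031 (SD, n = 3 each), a difference of 0.076 (exact two-sided permutation p = 0.1, the smallest 3 against 3 allow; adjusted p = 0.375 over 5 measures). Not centred and divided by library reads instead, the difference was 0.15 and the groups overlapped (exact permutation p = 0.4). Measured against the other shared regions, the log2 difference of the isolated ones was -0.17 ± 0.010 in controls and -0.078 ± 0.035 in diabetic rats (SD, n = 3 each; exact permutation p = 0.1, adjusted p = 0.167). Depth moved with the groups in part: control replicates 1, 2 and 3 had 8661200, 8175227 and 9030946 reads in the smaller library, and 2 of 3 diabetic rats had more than each of these. Diabetic replicate 1 had 8729247 reads. The part of depth in the difference was not tested.

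By level of signal, the medians differed in the same direction. In pileup classes 1, 2, 3 and 4 the median log2 difference of isolated regions was 0.047, 0.080, 0.11 and 0.11, against -0.039, -0.019, 0.0029 and 0.027 for the other shared regions of the same class. Isolated regions with all diabetic values higher numbered 16, 17, 18 and 12, or 14.3, 13.3, 18.8 and 13.2% of their class, against 6.81, 8.56, 10.5 and 12.4% of other shared regions. Those with all diabetic values lower numbered 8, 4, 1 and 2, or 7.14, 3.12, 1.04 and 2.20%, against 12.2, 9.73, 10.8 and 11.9%. In class 4, the strongest signal, the share of higher regions was near that of other regions. Over all classes, the median log2 difference of isolated regions was 0.087 among the 342 whose background was at the floor in all lists and 0.082 among the other 85. It was 0.081 among regions with a single summit in every list and 0.11 among those with several. The median was above 0 on all 20 chromosomes, from 0.0076 on chromosome 1 (49 regions) to 0.22 on chromosome 13 (9 regions). The median of the other shared regions was above 0 on 11 of the 20. Most chromosomes hold few isolated regions without overlap.

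Across all shared regions the difference followed the distance to the nearest region. The median log2 difference was -0.025 for the 2201 regions with a neighbour within 1 kb, -0.019 for the 1772 at 1 to 10 kb, 0.0031 for the 2157 at 10 to 100 kb and 0.059 for the 408 at 100 to 200 kb. It was 0.082 for the 296 isolated regions with a gap of up to 500 kb and 0.10 for the 131 beyond. All diabetic values were below all control values in 12.4% of regions within 1 kb and 12.8% at 1 to 10 kb. That share was 9.46% at 10 to 100 kb, 6.13% at 100 to 200 kb, 4.05% at 200 to 500 kb and 2.29% beyond (3 regions). The share with all diabetic values above went from 8.77% within 1 kb to 12.5% and 19.8% (26 regions) in both isolated classes. Local input also differed between the distance classes, though not steadily. The background was above the floor in all lists at 12.7, 13.7, 10.9, 8.58, 9.12 and 6.87% of regions, nearest class first. The part of local input in the difference was not tested. These classes describe 1 set of 6 animals, and the trend carries no test of its own.

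**Figure D3:**
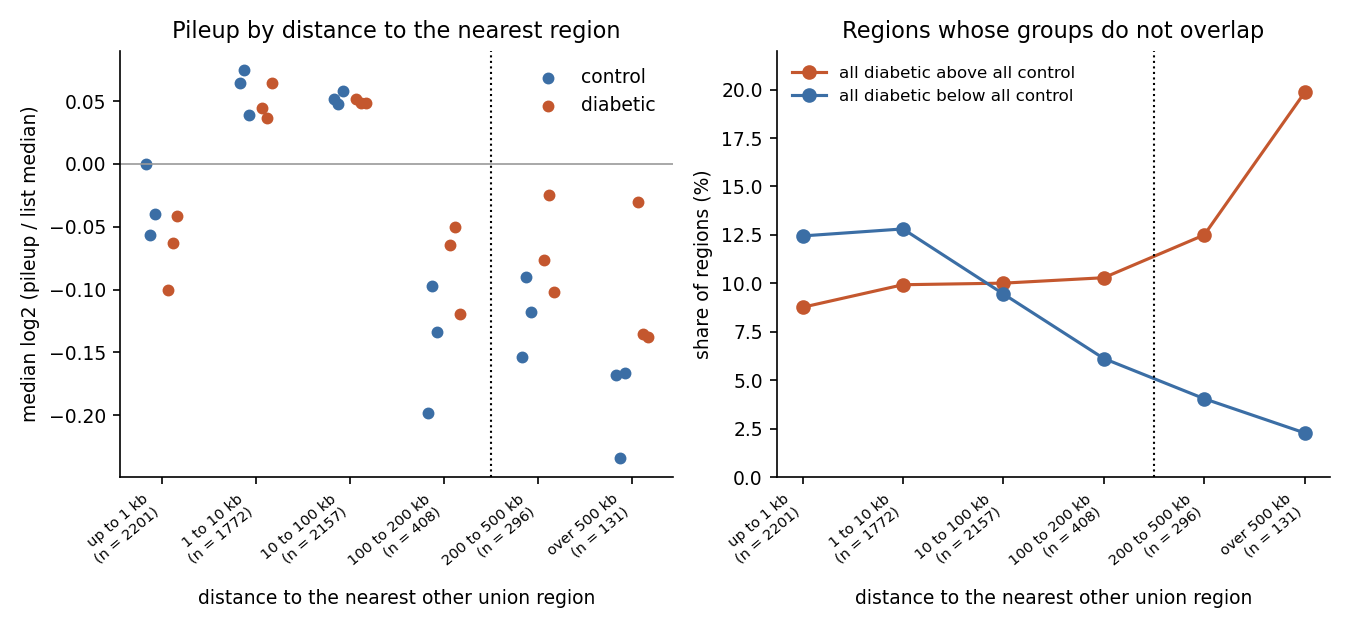
Left, median log2 relative pileup of shared regions in each of 3 control and 3 diabetic rats, by distance to the nearest other union region; right, share of regions (%) in which all diabetic values lay above, or below, all control values. Classes right of the dotted line are the isolated regions; beyond 500 kb, 19.8% were higher and 2.29% lower in diabetic rats.

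Single regions seldom passed the test across all shared regions. With limma on log2 relative pileup and Benjamini-Hochberg adjustment over 6965 regions, 1 isolated region was higher in diabetic retinas at an adjusted p under 0.05 and none was lower, against 20 of all shared regions (0.287%), 13 higher (0.187%) and 7 lower (0.101%). The share among isolated regions, 0.234%, is near that background. Divided by library reads and not centred, 32 shared regions were higher and 8 lower, 2 of the isolated ones among the higher. At an unadjusted p under 0.05, 43 isolated regions (10.1%) were higher and 8 (1.87%) lower, against 6.98% and 7.61% of all shared regions.

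The region that passed was chr2:48488487-48489030, 544 bases long, with 1221235 and 639166 bases to its neighbours. Its relative pileup was 1.90, 1.89 and 1.54 in control replicates 1, 2 and 3 and 2.78, 3.21 and 2.82 in diabetic replicates 1, 2 and 3. All diabetic values were above all control values, and the log2 difference was 0.73 ± 0.13 (SE; limma adjusted p = 0.0371, higher in 3 of 3 against all controls), a ratio of 1.66. Its width ranged from 482 to 505 bases in controls and from 509 to 537 in diabetic rats. The local background was 1.00 times the floor in each control and 1.27, 1.00 and 1.03 times in diabetic replicates 1, 2 and 3. The call was lost in 9 of 12 alternatives, among them the fit with the replicate number as a block (adjusted p = 0.0723) and those without control replicate 2 or 3 or any 1 diabetic animal, with adjusted p from 0.0190 to 0.175 over the 12.

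A larger difference was measured at chr5:153568763-153569083, which did not pass. Its relative pileup was 0.789, 0.560 and 0.476 in controls and 1.12, 1.26 and 1.06 in diabetic rats. The groups are separate, with a log2 difference of 0.95 ± 0.19 (SE; limma adjusted p = 0.0569). The peak was also wider in each diabetic animal, at 310, 315 and 266 bases against 222, 196 and 194 in controls. It passed in 2 of 12 alternatives, without control replicate 1, the highest of the controls (limma adjusted p = 0.0141), and divided by library reads and not centred (0.00255). In the other 10 the limma adjusted p was 0.0527 to 0.196.

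Next in size among separate groups were 4 other regions. At chr15:25081831-25082326 the relative pileup was 1.03, 1.48 and 1.49 in controls and 2.33, 1.59 and 2.48 in diabetic rats (log2 difference 0.67, limma adjusted p = 0.161). At chr18:18079442-18079934 it was 1.01, 1.35 and 1.07 in controls and 2.04, 1.59 and 1.65 in diabetic rats (log2 difference 0.62, limma adjusted p = 0.128). The local background there was 2.67, 3.32 and 3.17 times the floor in controls and 5.26, 4.51 and 4.45 in diabetic rats. Fold enrichment was 2.43, 2.64 and 2.69 in controls against 2.89, 2.68 and 2.61, with overlapping groups. At chr14:35530501-35531009 the relative pileup was 0.459, 0.372 and 0.327 in controls and 0.601, 0.613 and 0.466 in diabetic rats (log2 difference 0.54, limma adjusted p = 0.193). At the last of these the highest control and the lowest diabetic value nearly met, and its peak was 126 and 144 bases wide in control replicates 1 and 2 but 421 in control replicate 3, within the 411 to 475 bases of diabetic rats. At chr1:209525488-209525737 it was 0.743, 0.898 and 1.07 in controls and 1.34, 1.18 and 1.38 in diabetic rats (log2 difference 0.53, limma adjusted p = 0.174).

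Lower values in diabetic retinas were fewer and smaller, and none passed the test. At chr2:252294641-252294947 the relative pileup was 0.661, 0.527 and 0.721 in controls and 0.404, 0.460 and 0.432 in diabetic rats (log2 difference -0.55, limma adjusted p = 0.172). The local background there was 1.21, 1.25 and 1.71 times the floor in controls and 1.00, 1.00 and 1.32 in diabetic rats. Fold enrichment was 3.44, 2.68 and 3.31 against 2.93, 3.39 and 2.27, with overlapping groups. At chr1:112861141-112861324 the relative pileup was 0.761, 0.604 and 0.605 in controls and 0.482, 0.511 and 0.375 in diabetic rats (log2 difference -0.53, limma adjusted p = 0.193). Both are weak regions below the median shared region.

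The only strong region among the 6 largest lower differences was chr6:104614950-104615302. Its relative pileup was 5.50, 4.51 and 4.54 in controls and 3.26, 3.87 and 3.21 in diabetic rats, and the log2 difference was -0.49 ± 0.13 (SE; limma adjusted p = 0.133). All diabetic pileups were lower, while its width of 302 to 334 bases in controls compares with 322 to 348 in diabetic rats, so the ranges of width overlapped. Fold enrichment overlapped too, at 18.0, 10.8 and 12.4 in controls and 10.6, 20.7 and 8.36 in diabetic rats. The local background was 1.94, 2.70 and 2.88 times the floor in controls and 2.25, 1.38 and 2.68 in diabetic rats. The others were chr10:70753193-70753317 described above (log2 difference -0.43), chr3:83311210-83311439 with relative pileups of 0.789, 0.913 and 0.871 in controls against 0.756, 0.651 and 0.591 (-0.37), and chr16:86051328-86051791 with 0.661, 0.652 and 0.735 against 0.627, 0.617 and 0.415 (-0.33). Their limma adjusted p-values were 0.215, 0.288 and 0.433.

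**Figure D4:**
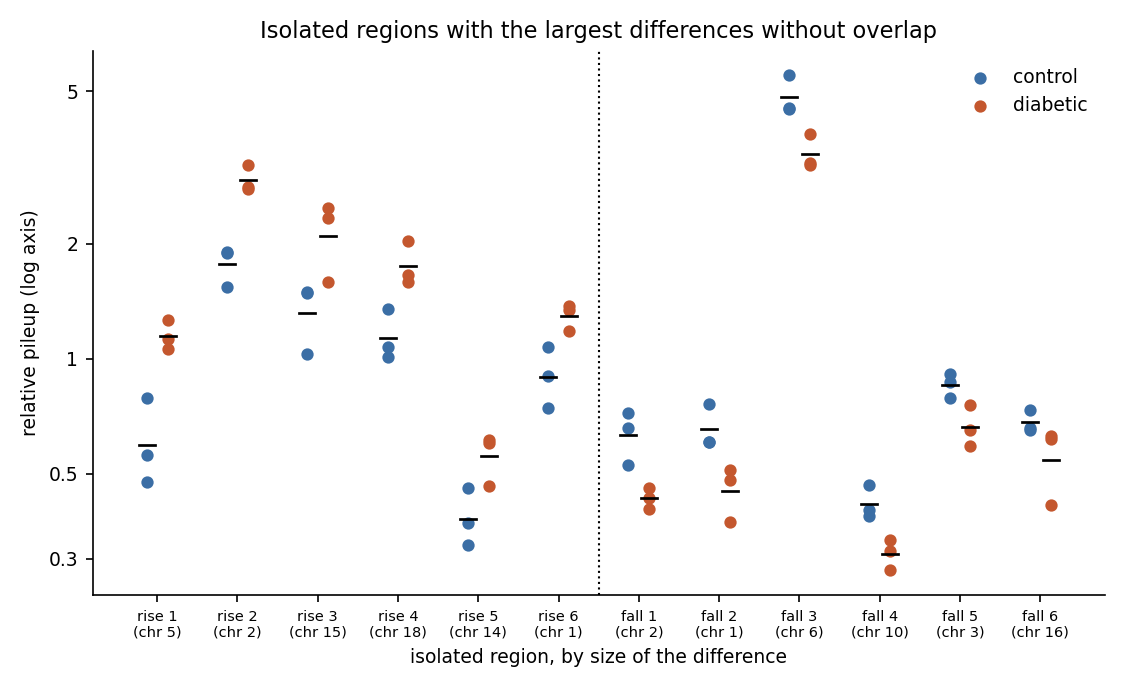
Relative pileup (log axis; 1 is the median shared region of the same list) in 3 control and 3 diabetic rats at the 6 isolated regions with the largest higher values and the 6 with the largest lower values in diabetic retinas, among those whose groups do not overlap; points are animals and bars geometric means. The second from the left, on chromosome 2, is the 1 region with an adjusted p under 0.05, and the fall 3 region on chromosome 6 is the strongest of the 12.

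**Figure D5:**
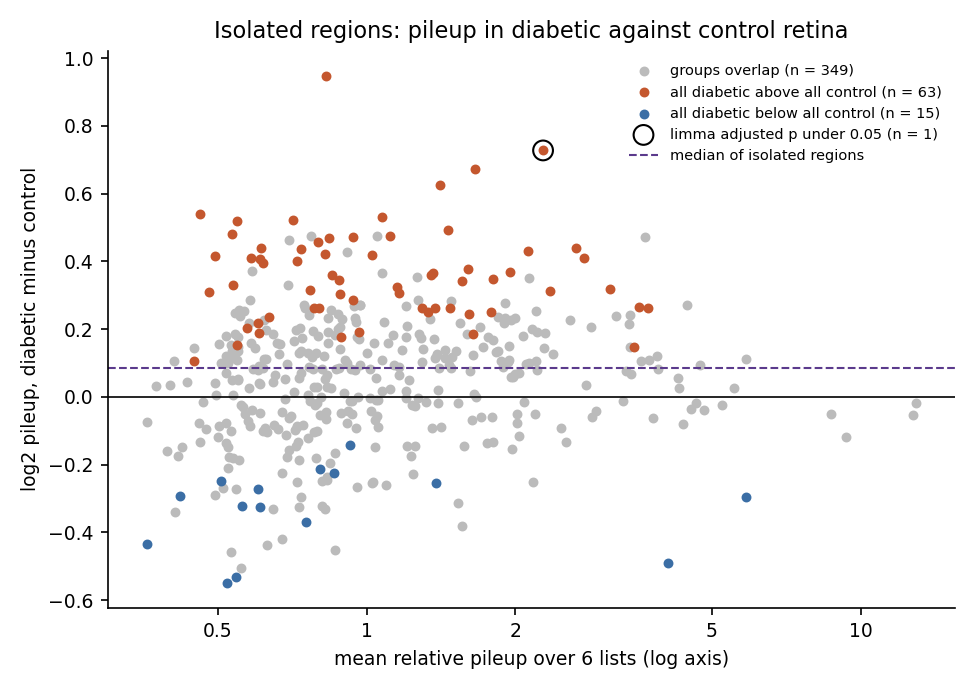
Log2 difference in pileup, diabetic minus control, against mean relative pileup (log axis) for the 427 isolated regions, coloured by whether the 3 diabetic and 3 control values overlap. The dashed line at 0.086 is the median of isolated regions, 63 regions are higher and 15 lower without overlap, and the circle marks chr2:48488487-48489030.

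Width and summit number of the isolated regions did not separate the groups. Median width averaged 326 ± 35.7 bases in the control group and 366 ± 15.6 in the diabetic group (SD, n = 3 each), a difference of 40.0 bases (exact two-sided permutation p = 0.3, adjusted p = 0.375). Control replicate 3, with a median of 367 bases, lay among the diabetic values, and without it the difference was 60.5 bases (exact permutation p = 0.1, the smallest possible). The share with several summits averaged 38.3% ± 3.36 in controls and 41.0% ± 2.11 in diabetic rats, a difference of 2.65 percentage points (n = 3 each, SD; exact permutation p = 0.3). Leaving out control replicate 3, that difference was 4.64 points (exact permutation p = 0.2). Against other shared regions, the difference in median width was -32.5 ± 0.866 bases for controls and -14.7 ± 2.89 for diabetic rats, without overlap (SD, n = 3 each; exact permutation p = 0.1, adjusted p = 0.167).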

How the data were processed

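The data were the peak lists of 6 IP libraries, in which 6 input libraries serve as background. CASAVA, MACS2 2.1.0, BWA 0.7.12 and fastp 0.19.11 were used per the submitters' processing notes, and the genome build is not given in the sources used here. For each animal the authors called peaks against its own input, per the file headers, at a q cut-off of 0.05, with reads extended to 118 to 125 bases, all duplicates kept, and scaling down of the larger library. The deposited pileup is a coverage signal, the deposited fold enrichment is the ratio of pileup to local background, and the deposited −log10 p and −log10 q columns, whose header cells hold a spreadsheet error, were told apart by column order. The local background follows from fold enrichment and pileup and was counted as at the floor within 1%.

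Lines with the same position were joined as 1 region, and regions on X, Y and other contigs were left out. Log2 relative pileup was fitted with limma 3.58.1 (R 4.3.3, eBayes with a trend) on all 6965 shared regions, and calls needed a Benjamini-Hochberg adjusted p under 0.05. Values with 1 number per animal were tested with exact permutations, two-sided. Merging, the permutation tests and the limma fit were tested on simulated data. Regions named were the 6 highest, 6 lowest and 6 remotest, all past the adjusted p, the 6 largest differences each way without overlap, the 4 widest, narrowest, most and least mobile, and 3 on each side of the minimum gap; the run on chromosome 14 was added after its values were seen. The rule for isolated regions and the measures were chosen with earlier results of these data known. Alternatives changed the gap, the q cut-off, merging, neighbours, averaging, scaling, the fit and the animals included. Replicate numbers were not used to pair the animals in the main tests.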

Additional observations from a re-analysis of the deposited data

How the results depend on the processing

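With a minimum gap of 100 kb or 500 kb there were 835 or 131 isolated regions; without 1 animal there were 440 to 469, and the other alternatives gave 420 to 550. The width difference between isolated and other shared regions was -21.4 bases with merging across 1 kb (exact sign-flip p = 0.0938), -10.7, -13.25, 19.9 and -11.5 bases in the 4 pileup classes, and -29.5 to -17.8 bases without 1 animal, where 5 animals cannot give a p below 0.0625. The difference in several-summit share was -2.04 points at 500 kb, -1.44 with wider merging, -2.65 and 5.95 in pileup classes 1 and 3, and -3.13 to -2.29 without 1 animal. Without 1 animal the pileup difference was -0.16 to -0.075 (log2) and that of background above the floor -7.08 to -6.06 points; both kept their direction in every alternative run. The pileup classes, and the alternatives run on counts without overlap, were added after the data were seen, and the cause of these changes was not tested beyond the smaller numbers.

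Isolated regions higher in diabetic animals without overlap numbered 105 of 835 at 100 kb and 26 of 131 at 500 kb, and lower ones 40 and 3. Over all shared regions, which the gap does not change, the shares were 9.91% higher and 10.7% lower. Without 1 animal 89 to 110 were higher and 25 to 41 lower, of 440 to 469 isolated regions. The shares over all shared regions are not given for those cases. With pileup divided by library reads and not centred, 9 (2.11%) were lower, against 3.93% of all shared regions. Fewer animals make separation easier. Limma called 2 isolated regions on that scale, 0 with ranks, mean summits, no trend or the replicate block, and 0 to 2 without 1 animal (2 without control replicate 1). Among all 6965 shared regions it called 32 higher and 8 lower on that scale, 1 and 0 with ranks and 2 and 0 with mean summits. The calls were 5 and 4 without the trend, 9 and 4 with the block, and 12 and 4 without control replicate 1. At an unadjusted p under 0.05, 42 isolated regions were higher and 6 lower with ranks, 30 and 15 with mean summits, 44 and 9 without the trend and 40 and 8 with the block. Over all 6965 shared regions the counts were 494 and 489, 430 and 446, 471 and 519, and 427 and 469. With mean summits, the higher share was 7.03% of isolated regions, near the 6.17% of all shared regions. Division by library reads moved the median of all shared regions by 0.069. The median difference over isolated regions was 0.056 to 0.10 in the alternatives that chose the regions anew. Over the same 427 regions it was 0.093 with mean summits. Divided by library reads and not centred it was 0.15, where the median of all shared regions was 0.068. The difference in median width between groups was 60.2 bases with wider merging, and that in several-summit share 1.72 points at 100 kb and 4.83 at 500 kb (exact permutation p = 0.1), 1.33 without control replicate 2 and 1.40 without diabetic replicate 2. Under the replicate block the group differences stay at 40.0 bases, 2.65 points and 0.076 by construction (exact sign-flip p = 0.5, 0.5 and 0.25). Deviations of same-numbered animals correlated at -0.22, -0.036 and 0.039 over shared regions, so no pairing was used. Depth limits the weakest regions, whose enrichment in lists without a peak is not known.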

Other observations

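Isolation was also common among regions missing from some lists. Of the 893 isolated union regions, 427 (47.8%) had a peak in all 6 lists, against 58.2% of the 11241 others, and 177 (19.8%) were found in a single list, against 14.3%. Isolated regions with a peak in all 3 diabetic lists and no control list numbered 11, and those in all 3 control lists and no diabetic list 3, or 1.23% and 0.336%. Among the 11241 others these patterns made up 1.10% (124) and 0.196% (22). Counted within each list alone, 855, 907 and 863 regions lay at least 200 kb from any other in control replicates 1, 2 and 3, and 859, 850 and 866 in diabetic replicates 1, 2 and 3. The means were 875 ± 28.0 and 858 ± 8.02 (SD, n = 3 each; exact two-sided permutation p = 0.5), so the groups overlapped.

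Chromosome X, which the choice of regions left out, held 307 union regions, of which 130 were in all 6 lists. By the same distance, 20 of these 130 (15.4%) were isolated, a higher share than on any of chromosomes 1 to 20, where the highest was 10.8%. This comparison was made after the data were seen and was not tested.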
